A study of Mus musculus with 2 samples.

Results

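A set of 7 microRNA (miRNA) genes from the imprinted Dlk1-Dio3 domain on mouse chromosome 12 was followed in embryonic forebrain. They were chosen by symbol: Mir431, Mir433, Mir127, Mir434 and Mir136, which lie antisense to the gene Rtl1, and Mir341 and Mir370, which lie within the non-coding gene Rian. Of the 7 listed genes, 6 have a row among the 1973 gene rows of the count tables, and Mir136 has none under its GENCODE M21 identifier. Small RNA was sequenced from total RNA of forebrain at embryonic day 16.5, from healthy embryos of the B6NCrl strain, male and female tissue pooled. The 2 libraries are biological replicates 1 and 2 of that single group, with separate biosample records, and the labels state 41 embryos for the pool of replicate 2. No second tissue, stage or genotype was sampled, so the values describe this tissue and the spread between 2 pools.

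The Dlk1-Dio3 region is imprinted: the protein-coding genes Dlk1, Rtl1 and Dio3 are expressed from the paternal chromosome, and the non-coding RNAs, the miRNAs among them, from the maternal one. Rtl1 derives from a retrotransposon and acts in the placenta. The miRNAs made from the opposite strand of Rtl1 match its transcript perfectly and are known to direct its cleavage. Rian is a long maternal transcript whose introns carry many small nucleolar RNAs as well as miRNAs, and the miRNAs of the region as a whole are known for their expression in brain.

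By the GENCODE M21 annotation (GRCm38, the assembly that mm10 names), Rtl1 covers chromosome 12, 109589193 to 109600330, on the minus strand, with its coding sequence at 109590172 to 109595403. Mir431 (109590447 to 109590537), Mir433 (109591715 to 109591838), Mir127 (109592846 to 109592915), Mir434 (109594506 to 109594599) and Mir136 (109595327 to 109595388) are on the plus strand, and all 5 fall wholly inside that coding sequence. Rian starts at 109603940 on the plus strand, and Mir341 (109611500 to 109611595) and Mir370 (109618258 to 109618336) lie on its strand. Both are intronic: of the 2 annotated Rian transcripts that span them, 0 have an exon there.

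The mature sequences show what the counts of each gene stand for, because reads of a hairpin come from its 5p and 3p arms and the tables do not separate the arms. They are given 5′ to 3′ from RefSeq (GRCm38.p6), with the seed, bases 2 to 8, in capitals.
miR-431-5p: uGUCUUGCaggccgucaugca
miR-431-3p: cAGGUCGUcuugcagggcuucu
miR-433-5p: uACGGUGAgccugucauuauuc
miR-433-3p: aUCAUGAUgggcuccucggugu
miR-127-5p: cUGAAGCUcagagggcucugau
miR-127-3p: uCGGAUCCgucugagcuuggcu
miR-434-5p: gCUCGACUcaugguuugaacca
miR-434-3p: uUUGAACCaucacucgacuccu
miR-136-5p: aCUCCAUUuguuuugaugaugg
miR-136-3p: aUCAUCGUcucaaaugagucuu
miR-341-5p: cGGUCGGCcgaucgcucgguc
miR-341-3p: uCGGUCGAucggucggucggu
miR-370-5p: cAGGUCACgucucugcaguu
miR-370-3p: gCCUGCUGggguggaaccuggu

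The 14 mature sequences do not form a seed family. No seed occurs in 2 of them, and 13 of the 14 have a seed that no other mature name in the RefSeq table has, which holds for 72.1% of all 1679 mature names there. The exception is miR-370-5p, whose seed AGGUCAC is also that of miR-1193-3p.

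Antisense position gives the Rtl1 miRNAs a perfect match in the Rtl1 transcript. The reverse complement of each of the 10 mature sequences of Mir431, Mir433, Mir127, Mir434 and Mir136 was found once in the 6358 bases of the annotated Rtl1 transcript. Counted in codons from the start codon, the site of miR-136-3p spans codons 6 to 13, that of miR-434-3p 273 to 280, that of miR-127-3p 832 to 839, that of miR-433-3p 1201 to 1208 and that of miR-431-3p 1627 to 1634 of the 1744 codons before the stop. The sites therefore run from the start of the coding sequence almost to its end. The site of miR-127-3p, the 3p arm of the most abundant gene here, is shown as the Rtl1 strand reads, with the bases opposite the seed in capitals.
Rtl1 site of miR-127-3p: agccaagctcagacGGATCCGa

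None of the 4 mature sequences of Mir341 and Mir370, nor their reverse complements, occurred in a GENCODE transcript of another gene, out of 141767 transcripts searched. The same search found the sequences of Mir431, Mir433, Mir127 and Mir434 in no transcript but their own, with the reverse complement in Rtl1 alone. No stretch of 22 bases in the hairpins of the 6 measured genes recurred in another RefSeq miRNA hairpin on either strand. Multimapping reads have a total of their own in the tables and enter no gene's count. Matches elsewhere in the genome were not searched.

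Repeats within the hairpin set 3 of the genes apart. The 2 arms of Mir431 share the 10 bases GUCUUGCAGG, the arms of Mir434 share the 9 bases UUUGAACCA, and the arms of Mir341 share the 7 bases CGGUCGG. Among 677 RefSeq hairpins with 2 annotated arms the median shared stretch was 4 bases, 0.591% shared at least 10, 1.33% at least 9 and 2.95% at least 7. The hairpin of Mir341 holds CGGU 7 times on its own strand, counting overlaps, and 0.0995% of 1005 hairpins, Mir341 itself, hold it as often. CGGU is part of the stretch that the arms of Mir341 share, so a high rank for it was likely from the start. Other hairpins were not searched for repeats of their own. In the 2 hairpins below, the mature arms are in capitals.
Mir431 hairpin: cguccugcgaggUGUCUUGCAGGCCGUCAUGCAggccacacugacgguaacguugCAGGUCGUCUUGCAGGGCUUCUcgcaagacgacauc
Mir341 hairpin: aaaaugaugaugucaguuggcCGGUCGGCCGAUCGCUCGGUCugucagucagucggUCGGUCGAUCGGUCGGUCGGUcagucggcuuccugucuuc

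**Figure D1:**
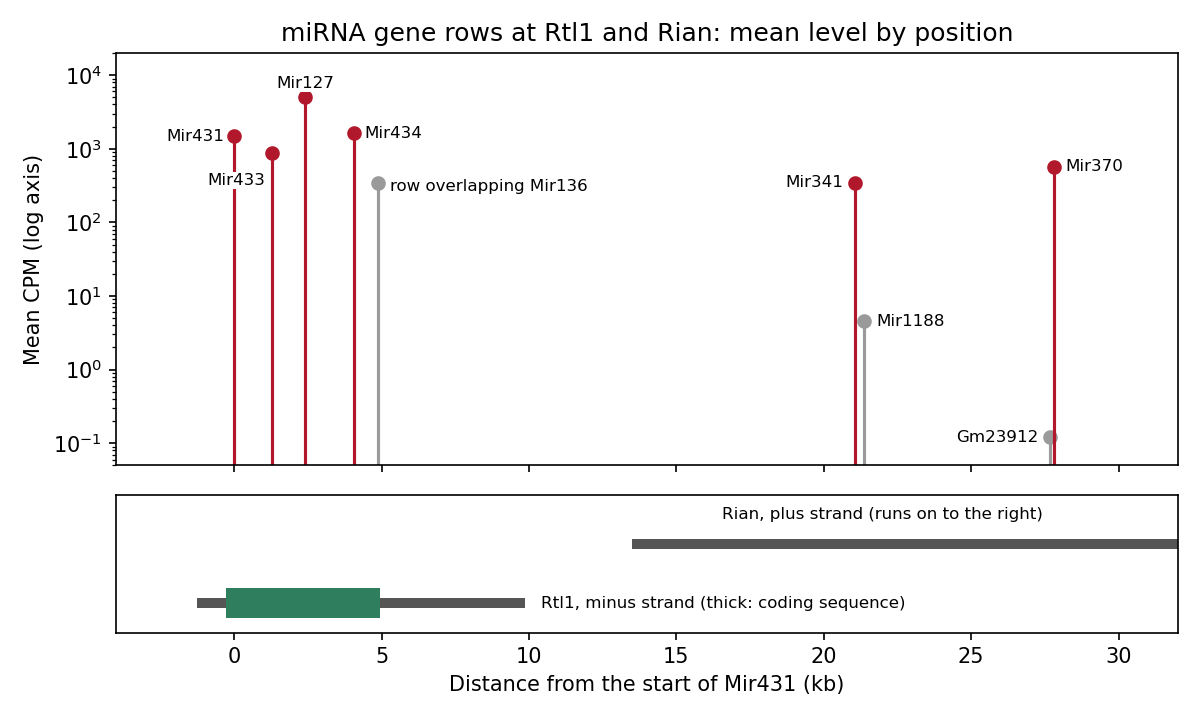
The upper panel plots the mean level of the 2 libraries (CPM, gene-strand counts scaled to a library total of 1000000, log axis) of each miRNA gene row with a count between Mir431 and Mir370 (Mir432, at 0, is not drawn) against its distance from the start of Mir431 in kb, with the listed genes in red and other rows in grey; the lower panel shows the spans of Rtl1 and Rian. Mir127 stands highest, at 5101 CPM, inside the coding sequence of Rtl1, and the Rian pair lies lower, at 347 and 571 CPM.

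Together the 6 measured genes took 1.00157% ± 0.226 of all gene-strand counts (SD, n = 2). They held 58775 of 5060112 counts in replicate 1, or 1.16% with an exact Clopper-Pearson 95% interval of 1.15% to 1.17%, and 35000 of 4158686 in replicate 2, or 0.842% with an interval of 0.833% to 0.850%. Such intervals cover counting error only and take each read as a separate draw. The sources describe no molecular identifiers, so repeated reads of the same molecule cannot be recognized and the intervals may be too narrow. The libraries lay farther apart than the intervals allow. The 4 genes at Rtl1 made up nearly all of it, with 0.9098% ± 0.202 of the counts, and the 2 genes at Rian added 0.0918% ± 0.0246. In bulk tissue, fewer cells that express a miRNA and less of it per cell cannot be told apart.

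Mir127 (ENSMUSG00000070076) was the most abundant of the 6. It had 28922 counts in replicate 1 and 18658 in replicate 2, which are 5716 and 4487 CPM, a mean of 5101 ± 869 (SD, n = 2). By level it ranked 35th among the gene rows of replicate 1 and 37th in replicate 2. It supplied 49.2% of the counts of the 6 genes in replicate 1 and 53.3% in replicate 2.

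Mir434 (ENSMUSG00000070133) and Mir431 (ENSMUSG00000070080) came next, at levels that the spread between pools does not separate. Mir434 had 9778 and 5573 counts, or 1932 and 1340 CPM, a mean of 1636 ± 419. Mir431, whose miRNA is known to promote axon regrowth in sensory neurons, had 8905 and 4955 counts, or 1760 and 1191 CPM, a mean of 1476 ± 402. The ranges of the 2 genes overlap, although within each library Mir434 was the higher, by 1.098 times in replicate 1 and 1.12 times in replicate 2.

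Mir433 (ENSMUSG00000070072) was the lowest of the measured genes at Rtl1, with 5648 and 2720 counts, or 1116 and 654 CPM, a mean of 885 ± 327. Its level in replicate 1 lay below both values of Mir431. Between the libraries it moved the most of the 6, and its CPM in replicate 1 was 1.71 times that in replicate 2, against 1.27 times for Mir127.

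The 2 genes in the introns of Rian were the least abundant by mean CPM. Mir370 (ENSMUSG00000065433) had 3420 and 1939 counts, or 676 and 466 CPM, a mean of 571 ± 148. Its range overlaps that of Mir433. Mir341 (ENSMUSG00000070101) had 2102 and 1155 counts, or 415 and 278 CPM, a mean of 347 ± 97.4, with both values below those of Mir370.

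The order Mir127, Mir434, Mir431, Mir433, Mir370, Mir341 was the same in both libraries. Neighbours with ranges that do not overlap were Mir127 and Mir434, a ratio of mean CPM of 3.12, Mir431 and Mir433, a ratio of 1.67, and Mir370 and Mir341, a ratio of 1.65. A read covers a mature miRNA whatever the length of its hairpin. Per 100 bases of gene model, Mir370 at 723 mean CPM would stand just above Mir433 at 714, and the other places would stay. None of the 6 genes had an opposite-strand count in either library.

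**Figure D2:**
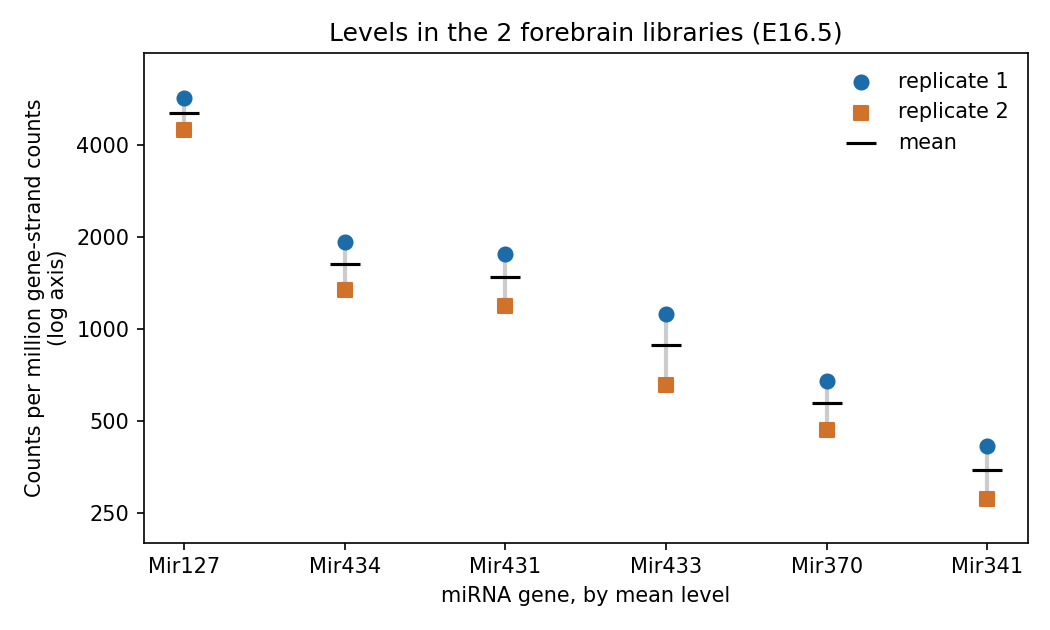
Level in CPM (log axis) of each of the 6 genes in replicate 1 (circles) and replicate 2 (squares), with the mean as a bar. Every gene is higher in replicate 1, and the range of Mir127, 4487 to 5716 CPM, lies above those of all the others.

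The genes kept close proportions to one another in the 2 pools, with Mir127 and Mir433 the exceptions. Mir434 supplied 16.6% and 15.9% of the counts of the 6 genes, Mir431 15.2% and 14.2%, Mir370 5.82% and 5.54%, and Mir341 3.58% and 3.300%. Mir433 supplied 9.61% and 7.77%. These shares do not depend on how the libraries are scaled. Among Mir434, Mir431, Mir370 and Mir341, the count ratio of any pair changed by a factor between 0.981 and 1.04 from replicate 1 to replicate 2. The ratio of Mir127 to Mir433 was 5.12 in replicate 1 and 6.86 in replicate 2, a factor of 1.34 and the largest among the 15 pairs.

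**Figure D3:**
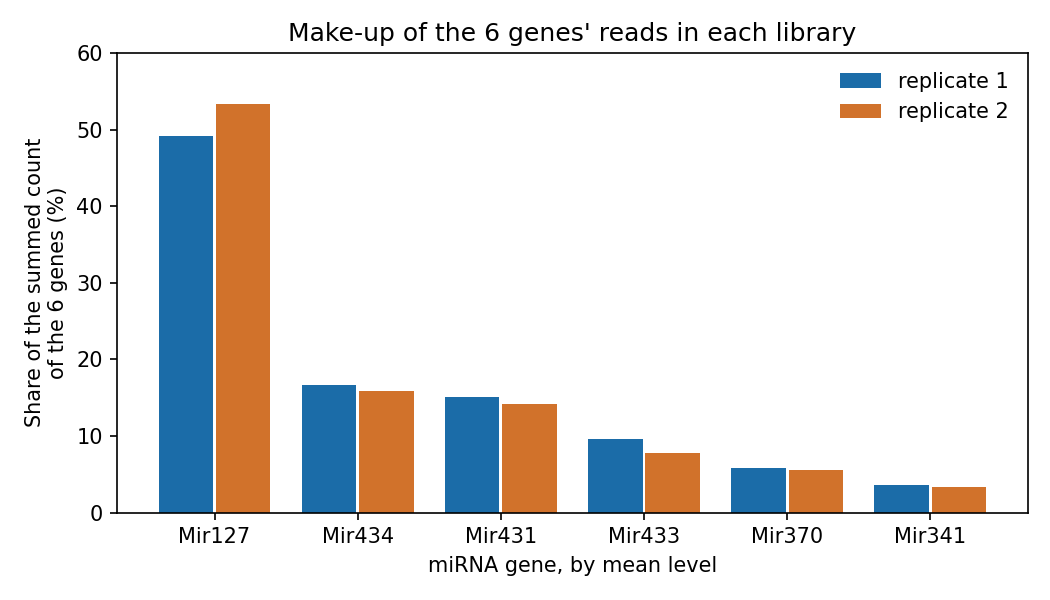
Share of the summed count of the 6 genes (percent) that each gene supplied in replicate 1 and replicate 2. Mir127 supplied 49.2% and 53.3%, and Mir433 fell from 9.61% to 7.77%, while the other 4 genes differed by about 1 percentage point or less.

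All 6 genes were lower in replicate 2. The 2 counts of a gene were compared by a two-sided exact binomial test given their sum, on library totals scaled with edgeR's trimmed mean of M values (TMM). It covered the 466 genes whose 2 counts sum to 10 or more, and p-values were adjusted over them by Benjamini-Hochberg. The test called 6 of the 6 genes lower at an adjusted p under 0.05. The background is 21.9% of tested genes called lower, 23.4% called higher and 45.3% called in either direction. That background takes in genes with few counts. With the minimum sum raised from 10 to 100, 203 of 299 genes were called, 97 lower and 106 higher. Each of the 6 genes had at least 1155 counts in either library. A call was therefore common among better-counted genes and does not by itself set the 6 apart. The log2 ratios of replicate 2 over replicate 1 were -0.63 for Mir433, -0.44 for Mir341, -0.42 for Mir431, -0.39 for Mir370, -0.38 for Mir434 and -0.21 for Mir127. Adjusted p-values of this exact test ran from 1.39e-79 for Mir433 to 3.33e-16 for Mir341. The test sets 1 library against another, not conditions. It treats each read as a separate draw and leaves out variation among pools, so it shows only that counting noise is smaller than these differences. Genes that share a primary transcript are not independent observations.

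The median log2 ratio of the 6 genes was -0.41, and that of all 466 tested genes was 0.01. With unscaled library totals the medians were -0.55 and -0.14, and the calls over all genes changed from 102 lower and 109 higher to 155 lower (33.3% of tested genes) and 67 higher, while the 6 genes were called lower under both scalings. Replicate 2 held 39.2% of the summed counts of Mir127, with an exact 95% interval of 38.8% to 39.7%, and 32.5% of those of Mir433, with an interval of 31.5% to 33.5%. The shares of the other 4 genes lay between 35.5% and 36.3%. Among the 273 genes that reached 100 counts in each library, 17 had a lower log2 ratio than Mir433 and 80 a lower one than Mir127. The 6 genes therefore lie in the lower part of the distribution but not at its end.

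Among the other miRNA genes of the region, some were called lower in replicate 2 and 0 higher. On the Meg3 side, upstream of Mir431, 4 of 7 tested genes were called lower and 0 higher, with a median log2 ratio of -0.31. Downstream of Mir370, 24 of 33 tested genes were called lower and 0 higher, with a median of -0.35. The 9 distal genes that were not called include 4 with a log2 ratio above 0, chosen for mention after their values were seen: Mir1197 at 0.63, Mir1247 at 0.39, Mir544 at 0.20 and Mir495 at 0.06. The 6 genes held 17.4% of all gene-strand counts between Dlk1 and Dio3 in replicate 1 and 19.0% in replicate 2, the Meg3 side 3.23% and 3.17%, and the distal genes 78.8% and 77.2%. Opposite-strand reads are left out of these shares, which lowers the distal share. The distal rows Mir299b, Gm25750, Gm25252 and Gm24321 held 2399, 2624, 14874 and 20567 such reads in replicate 1, and 1676, 1521, 9821 and 9997 in replicate 2. A difference between these parts was not tested.

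**Figure D4:**
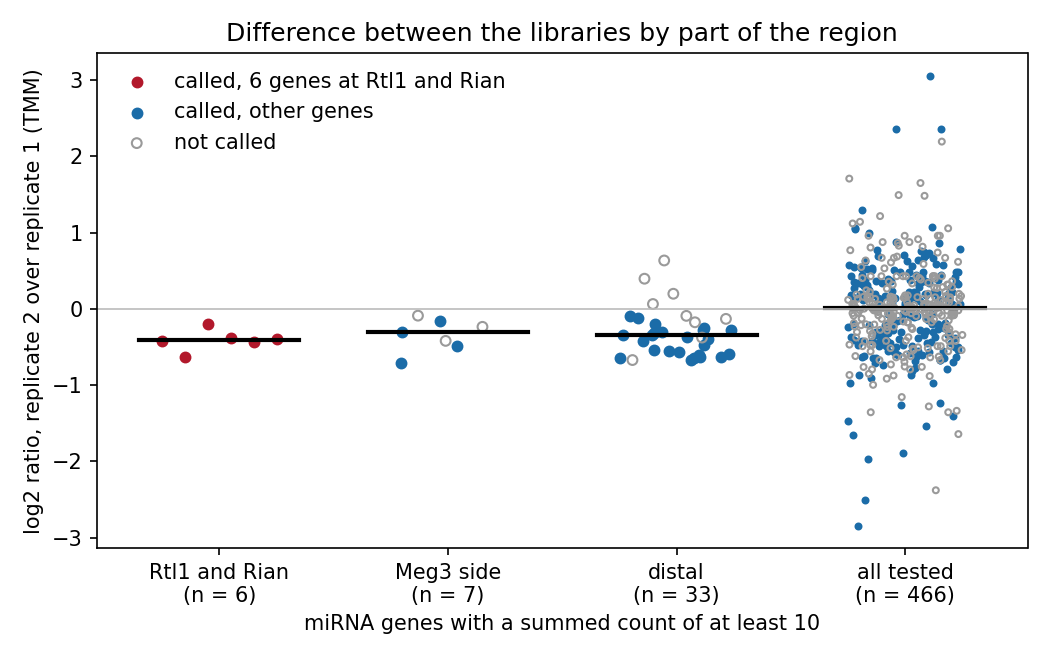
Log2 ratio of replicate 2 over replicate 1 (TMM) of each tested gene, for the 6 genes at Rtl1 and Rian, the Meg3 side, the distal genes and all 466 tested genes, with medians as black lines. The 6 genes lie between -0.63 and -0.21, below the overall median of 0.01 and within the range of the distal genes.

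The median of the mean levels was 1180 CPM over the 6 genes, 63.6 CPM over the 9 rows of the Meg3 side and 88.1 CPM over the 40 distal rows. The 6 genes were listed by name, and rows at 0 count in the other medians, among them distal rows with reads on the opposite strand only. The highest genes of the Meg3 side were Mir337 at 660 ± 202 CPM, Mir770 at 570.0 ± 233 and Mir540 at 257 ± 56.6. All 3 lay below Mir127, Mir434 and Mir431, while the mean of Mir337 was above those of Mir370 and Mir341. The highest distal gene, Mir487b, reached 19263 ± 7210 CPM, with Mir369 at 4284 ± 1416 and Mir382 at 3947 ± 1038 behind it. The ranges of Mir369 and Mir382 overlap that of Mir127.

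Other rows between Mir431 and Mir370 were low, except for the row that overlaps Mir136. Mir432, also inside the coding sequence of Rtl1, had 0 counts in both libraries, which allows up to 0.593 CPM in replicate 1 and 0.721 CPM in replicate 2, at a limit of 3 counts. Mir1188 (109611822 to 109611941), the next row downstream of Mir341 and also intronic in Rian, had 35 and 9 counts, or 6.92 and 2.16 CPM, and was called lower in replicate 2 (log2 ratio -1.47, adjusted p = 0.00828 by the exact binomial test). Gm23912, next to Mir370, had 0 and 1 counts. The nearest neighbour of Mir341 was thus far below its 415 and 278 CPM.

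The place of Mir136 is covered by a single row, ENSMUSG00000070129. It had 1961 gene-strand and 2 opposite-strand counts in replicate 1 and 1196 and 0 in replicate 2, or 388 and 288 CPM on the gene strand, and was called lower in replicate 2 (log2 ratio -0.29, adjusted p = 2.01e-07 by the exact binomial test). GENCODE M21 gives this identifier, at version 2, to Mir3071, a minus-strand gene at 109595318 to 109595397 that spans Mir136. The tables list version 1 from GENCODE M4, which was not used here, and the strand that version 1 had there decides whether its gene-strand reads belong to Mir136 or to Mir3071. That cannot be told apart here, and the row is counted with neither. The 4 other minus-strand rows of the region that overlap a plus-strand miRNA gene in M21, Mir299b, Gm25750, Gm25252 and Gm24321, chosen after their values were seen, had their reads on the opposite strand, with at most 7 gene-strand counts each. The hairpins of Mir136 and Mir3071 are shown because each arm of one lies opposite an arm of the other, so only the strand separates their reads. Mature arms are in capitals.
Mir136 hairpin: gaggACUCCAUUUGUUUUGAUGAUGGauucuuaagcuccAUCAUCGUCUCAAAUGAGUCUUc
Mir3071 hairpin: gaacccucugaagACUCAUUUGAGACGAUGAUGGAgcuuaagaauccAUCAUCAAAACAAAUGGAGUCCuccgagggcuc

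For each of the 6 genes, the other gene closest to it in log2(CPM + 1) over the 2 libraries was found, as a description of 2 samples. Mir433 lay closest to Mir323, at 877 ± 298 CPM and a distance of 0.046, Mir434 to Mir379, at 1544 ± 202 and 0.21, and Mir370 to Mir1193, at 567 ± 135 and 0.032. These 3 are distal genes of the same region. Mir127 lay closest to Mir125a, at 5104 ± 737 CPM and a distance of 0.038, Mir431 to Mir204, at 1453 ± 306 and 0.093, and Mir341 to Mir10a, at 356 ± 120 and 0.091, and these 3 lie on other chromosomes.

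As a check of the tissue, the neural genes Mir137, Mir92b and Mir9-3 stood at 12348, 4025 and 717 CPM on average and Mir124a-1 at 4.27 CPM. The mature miRNAs of Mir9-3 and Mir124a-1 are known to be encoded at several loci, and multimapping reads enter no gene's count, so these 2 values are not the levels of miR-9 and miR-124 in the tissue. Endothelial Mir126a stood at 17805 CPM, erythroid Mir451a at 195, hepatic Mir122 at 81.4, Mir196b of the Hox clusters at 33.3 and muscle Mir206 at 22.01. From replicate 1 to replicate 2, Mir451a fell from 239 to 152 CPM, Mir122 from 97.8 to 64.9 and Mir196b from 41.3 to 25.2. The CPM of the neural Mir137 (13239 to 11457), Mir9-3 (737 to 698) and Mir124a-1 (4.94 to 3.61, from 25 and 15 counts) also fell. CPM carries no TMM scaling, and with unscaled totals the median log2 ratio of all tested genes was itself -0.14. Small falls in CPM, such as that of Mir9-3, therefore do not show a fall relative to the other genes. Neural Mir92b (3911 to 4140), Mir126a and Mir206 were higher in replicate 2. The part of the cells that these genes mark in the difference between the pools was not tested.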

How the data were processed

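The authors deposited a table of whole-number read counts per gene for each library, with no column names and with totals of unassigned reads on top. The genome was mm10 with GENCODE M4, per the deposited descriptions. Aligner, counter and trimming: not given in the sources used here. Reads mapping to several loci made up 40.5% and 43.3% of all reads in replicates 1 and 2, unmapped reads 19.1% and 15.2%, and uniquely mapped reads outside listed genes 2.496% and 2.82%, all kept out of totals and tests. The first count column equalled the sum of the other 2 in every row and was read as the unstranded count, the others as the strands, and the strand column that held 98.1% and 98.3% of gene reads is called the gene strand.

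Identifiers were matched to GENCODE M21 without version, with a symbol for 1894 rows. CPM is per 1000000 gene-strand counts. TMM factors came from edgeR 4.0.16 (R 4.3.3) over genes whose counts sum to 10 or more. Exact binomial tests used SciPy 1.17.1 and were tried on simulated Poisson counts. That simulation held no variation among pools, so it checks the code and not the calls in these libraries. Log2 ratios used counts plus 0.5. Genes named are the listed ones, other rows between or overlapping them, the 3 highest on either side in the region, the nearest gene to each, and tissue markers; the distal genes Mir299b, Gm25750, Gm25252, Gm24321, Mir1197, Mir1247, Mir544 and Mir495 are named outside this rule, chosen after their values were seen. The listed genes, gene lists and tests were chosen with earlier results of these data known. Alternatives were unscaled totals, DESeq2 1.42.0 size factors, unstranded counts, other count minimums, other denominators, another added count and single libraries. A quasi-likelihood test needs a second group and was not run.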

Additional observations from a re-analysis of the deposited data

Results flagged for a closer look

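The row ENSMUSG00000070129, which lies outside the 6 genes compared, held reads in both libraries, far more than the 3 counts that a zero leaves possible. Its mean level was 338 ± 70.7 CPM (SD, n = 2), from 1961 and 1196 gene-strand counts, against limits of 0.593 CPM in replicate 1 and 0.721 CPM in replicate 2. That is close to Mir341 at 347 ± 97.4 CPM, and their ranges overlap.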

How the results depend on the processing

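The summed share of the 6 genes, 1.00157% of gene-strand counts, was 0.376% with all reads, unassigned ones included, as the denominator, which the larger denominator alone explains, and single libraries gave 0.842% to 1.16%. With unstranded counts it was 0.983%, and with the row that overlaps Mir136 added, an alternative chosen after seeing the data, 1.035%. The exact binomial test called all 6 genes lower in replicate 2 with TMM, unscaled totals, DESeq2 size factors, unstranded counts and count minimums of 1 and 100, and 7 of 7 with that row added. Calls over all genes numbered 203 to 225 in these settings against 211, but the share of tested genes called was not stable. It was 211 of 466 (45.3%) in the main setting, 207 of 703 at a minimum of 1 and 203 of 299 at a minimum of 100. Of the values for single genes under an alternative, 60 stayed within the spread of the replicates or kept their call, and 6, the CPM with all reads as denominator, moved. Part of the 60 was fixed in advance and is no check. Either of 2 libraries always lies within the SD of their mean. Shares among the 6 genes cannot change with unstranded counts, since none of these genes had an opposite-strand count. For the calls of these genes, unstranded counts likewise changed only the scaling and the p-value adjustment. The count minimums of 1 and 100 changed only the adjustment. Those settings are therefore a weak check of the calls. No paired analysis was possible because the 2 libraries form a single group, and no test is possible with a library left out. With each read taken as a separate draw, counting noise does not limit the 6 genes, whose lowest count was 1155. The 2 pools limit what can be said of spread.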

Other observations

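Mir370 and Mir1193 met in separate comparisons. The seed of miR-370-5p, AGGUCAC, is the only seed among the 14 mature sequences that another mature name has, and that name is miR-1193-3p. Of the rows with a symbol, Mir1193 was also the one closest to Mir370 in level, with 663 and 471 CPM against 676 and 466. It lies in the distal cluster of the same imprinted region. This coincidence was noticed after the values were seen, no relation was tested, and the tables do not show which arm the reads came from. Both sequences are given with the seed in capitals.
miR-370-5p: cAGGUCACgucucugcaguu
miR-1193-3p: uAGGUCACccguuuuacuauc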
